A study of Mus musculus with 4 samples.

Results

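B-lineage cells were followed in bone marrow preparations that had been sorted to leave blood cells out. A barcode counted as a B-lineage cell when it held 1000 or more unique molecular identifiers (UMIs, each 1 captured RNA molecule), 500 or more genes and a mitochondrial share of 10% or less, with at least 2 UMIs of Cd79a, at least 1 of Cd79b, no UMI of the endothelial gene Cdh5 and less than 2000 CPM (a gene's UMIs scaled to a common total of UMIs) of the stromal gene Cxcl12. This rule found 338 of 16658 kept cells: 187 in control library 1, 80 in control library 2, 17 in mutant library 1 and 54 in mutant library 2. The members were thus chosen on measured Cd79a and Cd79b counts, so those 2 genes are in no list count below.

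Live cells negative for CD45 and Ter119 (a gate that aims to leave out white and red blood cells) came from the marrow of C57BL/6 mice at postnatal day 12, and droplet 3′ RNA sequencing gave 4 libraries, 2 per genotype. The controls carry only that word as genotype. Mutant library 1 is labelled Prx1-cre;Mettl3-fl/fl, in which a Cre driven by the limb mesenchyme promoter Prx1 deletes the loxP-flanked gene of an RNA m6A methyltransferase, and mutant library 2 only as mutant. The sort used 3 control and 3 mutant mice, and the labels do not say which mice a library holds, so p-values measure only the spread between these libraries. Whether the Cre acted in the B-lineage cells was not measured.

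B lymphocytes arise in the marrow through ordered stages. Pro-B cells rearrange the immunoglobulin heavy chain with the Rag1 and Rag2 recombinase, while Dntt (terminal transferase) adds bases at the joints. In large pre-B cells the new heavy chain (Ighm) pairs with the surrogate light chain made by Vpreb1 and Igll1, and signals through Cd79a and Cd79b. The surrogate genes are then shut off, the light chain genes (Igkc, Iglc1) rearrange in small pre-B cells, and the immature B cell that follows turns on Ms4a1 (CD20) and antigen presentation by MHC class II. Interleukin 7, received through Il7r, carries the early stages. CD45, the antigen of the sort, is encoded by Ptprc and is present on B-lineage cells at all of these stages.

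The label held against markers that the rule did not use, with a UMI of at least 3 of 6 such genes (Ebf1, Pax5, Vpreb3, Blnk, Ighm and Cd24a) in all 338 cells. Ebf1, a transcription factor that commits cells to the B lineage, had a UMI in all 338 cells too and reached 2601, 3017, 2219 and 2354 CPM, compared with 10.4, 0.356, 0.879 and 6.53 CPM in erythroid cells (at least 1000 CPM of a sum of erythroid genes that includes Klf1, Slc4a1 and Rhag, no Cd79a). Libraries are given in the order control 1, control 2, mutant 1 and mutant 2, here and below. No Ebf1 level of stromal cells is given, so Ebf1 alone does not set the members apart from those. Vpreb3, a chaperone of the early receptor, had a UMI in 337 of the 338 cells. T cell and NK cell marker lists summed to at most 32.6 CPM in any library. Of the plasma cell list, which has 6 genes, only Jchain is given here. It had 0 UMIs in every library, which allows up to 3 UMIs, and does not stand for the whole list.

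Among the members, 4, 4, 1 and 4 cells had exactly 2 UMIs of Cd79a, and the median was 13, 13, 7 and 10 UMIs. Just outside it lay 0, 2, 1 and 4 cells with 1 UMI of Cd79a and any Cd79b, and 1, 0, 1 and 8 cells with Cd79a but no Cd79b, and 0, 2, 2 and 11 of these had a UMI of Ebf1 or Pax5. Outside the rule, 16, 7, 21 and 47 kept cells had at least 3 of the 6 markers, and 9, 3, 17 and 28 of them had no UMI of Cd79a or Cd79b. The Cdh5 limit removed 1, 2, 0 and 0 cells and the Cxcl12 limit removed 3, 0, 0 and 0.

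Library totals ran from 47390414 to 116863081 UMIs, and the members held 1535833, 614553, 104111 and 472882 of them. Members were shallow: their median was 4530, 4520, 4366 and 4733 UMIs, against 10186 to 24080 for all kept cells of a library. No barcode of a member was shared between libraries. Mutant 1's file holds called cells only, and the other 3 also hold empty droplets, in whose free RNA Cd79a stood at 22.3, 21.3 and 8.66 CPM (control 1, control 2, mutant 2). Some members also held at least 10000 CPM summed over a list of another lineage's genes. These mixed members numbered 10 of 187 and 3 of 80 in the controls (12 with erythroid and 1 with neutrophil genes), 3 of 17 in mutant 1 (all with bone genes) and 5 of 54 in mutant 2 (3 with bone, 1 with erythroid and 1 with neutrophil genes). In control 1 their median was 23561 UMIs, against 4449 for the rest, and results that rest on them are given with and without them. This class was defined after the data were seen. Its bone list includes Spp1, Mepe, Dmp1, Ibsp and Col1a1, and its erythroid list the globin genes and Car2. For those genes, values without mixed members are no independent check.

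The share of B-lineage cells was highest in control 1 at 3.22% (95% Clopper-Pearson interval 2.78 to 3.71), then 2.20% (1.75 to 2.73) in control 2, 1.18% (0.886 to 1.53) in mutant 2 and 0.647% (0.377 to 1.03) in mutant 1. Both control libraries lay above both mutant libraries, by 1.02 points within the pair with Cell Ranger 6.1.2 in the processing notes and by 2.57 points within the 5.0.1 pair. The difference of means was -1.80 points, with an exact two-sided permutation p of 0.333, the smallest that 2 against 2 libraries allow (Benjamini-Hochberg 0.667 over the 2 shares tested). The denominators moved too: neutrophil-lineage cells (granule genes Camp, Ngp, Ltf, Elane, Mpo and Prtn3 at 2000 CPM or more, no Cd79a) were 0.585%, 0.853%, 6.89% and 18.5% of kept cells, and erythroid cells 36.5%, 37.7%, 3.04% and 15.2%. With the cells outside the rule that hold at least 3 of the 6 markers added, an alternative chosen after seeing the data, the shares were 3.50%, 2.39%, 1.45% and 2.20%: the order of the groups held, but the gap within the 6.1.2 pair shrank and the difference of means was -1.12 points. The added cells include neutrophil-lineage cells and cells beyond the Cxcl12 or Cdh5 limit, and many had no UMI of Cd79a or Cd79b. Not all of them need be B-lineage cells. All shares here describe what passed the sort, and intervals cover counting error only. The part of the neutrophil-lineage and erythroid shares in the B-lineage share was not tested.

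**Figure D1:**
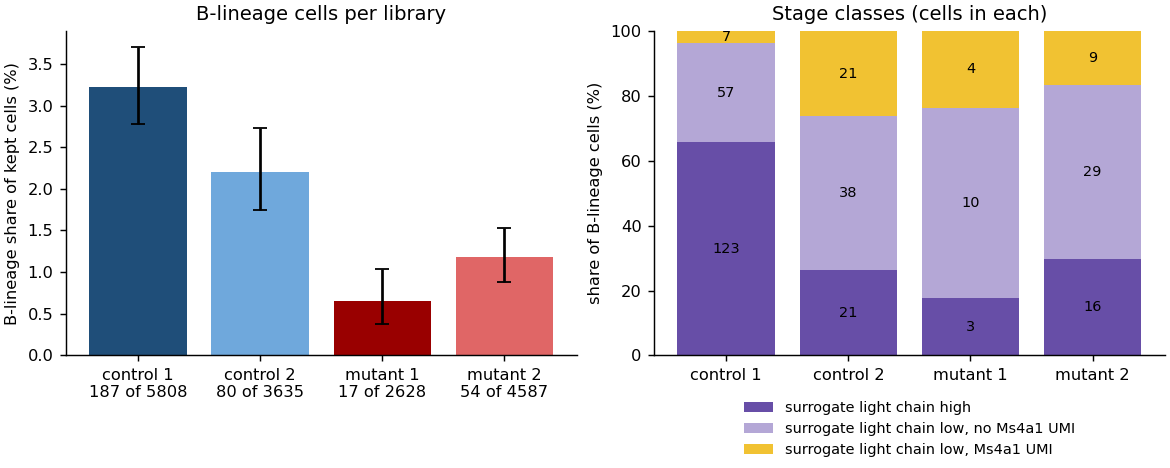
Left, B-lineage cells as a percent of kept cells in each library, with 95% Clopper-Pearson intervals. Right, the 3 stage classes as percent of those cells, with the number of cells in each. The control shares, 3.22% and 2.20%, stand above 0.647% and 1.18%, and control 1 alone is mostly surrogate light chain high (123 of 187 cells).

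Expression of the surrogate light chain split the cells. Vpreb1 plus Igll1 was at 0 in 53, 54, 13 and 34 cells and over 1000 CPM in 114, 20, 3 and 14, while 250 to 500 CPM held 5, 1, 1 and 0 cells and 500 to 1000 CPM held 9, 1, 0 and 2. Cells at 500 CPM or more are called SLC-high here. They made up 123 of 187 (65.8%), 21 of 80 (26.3%), 3 of 17 and 16 of 54 (29.6%) cells. Control 1 stood far from control 2, with intervals of 58.5 to 72.5% and 17.0 to 37.3%, so the 2 control libraries differed more from each other than control 2 did from mutant 2. Over the 3 libraries with at least 20 members the mutant minus control difference was -16.4 points (exact two-sided permutation p = 1). It was -48.1 and 3.38 points within the 2 Cell Ranger pairs, and without control 1 its sign turned.

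The surrogate genes lie side by side on chromosome 16 (Vpreb1 at chr16:16868403-16870843 and Igll1 at chr16:16860671-16863985, both on the minus strand, mm10). As both genes set the class, the 250 bases before each RefSeq start (GRCm38.p6) are shown, with that of Dntt, which was not used to set the class and was higher in it. Capitals mark CAGGTG or its reverse complement CACCTG, an E-box of the kind bound by E2A (Tcf3), a B-lineage factor. The motif was chosen with the sequences in view.
Vpreb1, chr16:16869256-16869505, minus strand: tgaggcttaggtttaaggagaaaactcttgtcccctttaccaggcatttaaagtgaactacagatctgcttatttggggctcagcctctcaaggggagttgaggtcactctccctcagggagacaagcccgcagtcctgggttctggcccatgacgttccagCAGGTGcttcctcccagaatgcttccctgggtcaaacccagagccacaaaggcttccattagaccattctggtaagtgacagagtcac
Igll1, chr16:16863986-16864235, minus strand: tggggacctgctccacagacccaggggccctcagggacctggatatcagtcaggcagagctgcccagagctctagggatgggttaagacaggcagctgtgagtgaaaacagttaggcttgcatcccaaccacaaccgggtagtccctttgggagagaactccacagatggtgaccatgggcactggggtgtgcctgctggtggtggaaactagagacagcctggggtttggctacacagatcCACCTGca
Dntt, chr19:41029025-41029274, plus strand: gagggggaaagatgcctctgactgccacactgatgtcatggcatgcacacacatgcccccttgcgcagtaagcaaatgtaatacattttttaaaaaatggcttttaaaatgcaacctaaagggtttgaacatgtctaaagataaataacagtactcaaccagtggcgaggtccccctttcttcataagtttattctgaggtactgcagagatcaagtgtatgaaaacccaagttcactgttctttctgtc
The E-box occurred once before Vpreb1, 88 bases upstream of the start, and once before Igll1, 8 bases upstream, and its letters were not in the Dntt window. The windows of Cd79a and of Rag1, which did not separate the classes, also held it, and those of Il7r and Ptprc did not. The EBF core motif CCCNNGGG (N, any base) was searched too, and was found before Igll1 but not before Vpreb1 or Dntt. Of 32851 windows of the same length in that RefSeq set, 17.2% held the E-box and 11.8% the EBF core, so a match is a description only. The Vpreb1 window lies inside the longer gene model of the GENCODE annotation. Vpreb2, a near-identical copy of Vpreb1, can share its reads, and counts of the pair are uncertain between them.

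SLC-high cells carried Vpreb1 at 2509, 2227, 2382 and 1407 CPM and Igll1 at 1473, 1194, 1559 and 902 CPM, values that the class rule sets. Dntt, which the rule did not use, followed them: it stood at 715, 568, 303 and 250 CPM in SLC-high cells, and 107 of 123, 15 of 21, 2 of 3 and 4 of 16 of them had a UMI. In SLC-low cells 2 of 64, 1 of 59, 0 of 14 and 1 of 38 did. Both controls lay above both mutants in the Dntt level of SLC-high cells, although mutant 1 rests on 7 UMIs from 3 cells. Kit, a stem cell factor receptor kept by pro-B cells, had a UMI in 20 of 123, 2 of 21, 0 of 3 and 1 of 16 SLC-high cells. Rag1 did not separate the classes. It stood at 156, 103, 86.6 and 73.5 CPM in SLC-high cells and, in SLC-low cells without Ms4a1, at 166, 235, 19.2 and 112 CPM.

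SLC-low cells without a UMI of Ms4a1 (57, 38, 10 and 29 cells) mostly carried light chain RNA. Igkc was present in 51 of 57, 34 of 38, 10 of 10 and 25 of 29 of them, at 2384, 2900, 1574 and 1478 CPM, against 231, 26.7, 563 and 299 CPM in SLC-high cells. Il7r was at 354, 604, 346 and 395 CPM. Il2ra (CD25), a surface marker of small pre-B cells, had a UMI in 13 of 57, 15 of 38, 0 of 10 and 4 of 29. In SLC-high cells it had one in 3 of 123, 0 of 21, 0 of 3 and 1 of 16.

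Ms4a1-positive SLC-low cells (7, 21, 4 and 9) had the most light chain and MHC class II RNA. Igkc reached 11831.5, 6242, 1867 and 9429 CPM, and Cd74, the invariant chain of MHC class II, 7059, 2925, 1176 and 3595 CPM, against 405, 509, 461 and 129 CPM in SLC-low cells without Ms4a1. Each library had more Cd74 in the Ms4a1-positive cells. Ighm was at 6192, 3823, 2248 and 4369 CPM. Il7r was at 0, 57.2, 173 and 332 CPM in them, below the other SLC-low cells in every library. Mutant 1 was the lowest library for Igkc, Cd74 and Ighm here, with 4 cells. This class made up 3.74% of members in control 1 and 26.3%, 23.5% and 16.7% in the others.

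**Figure D2:**
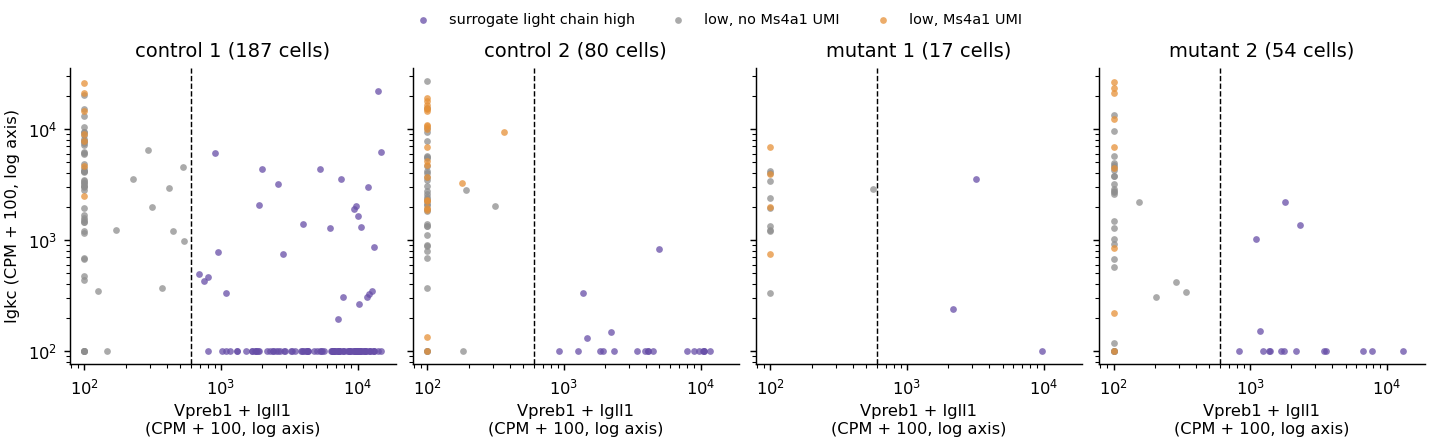
Each point is 1 B-lineage cell: Vpreb1 plus Igll1 (horizontal) against Igkc (vertical), both as CPM plus 100 on log axes, 1 panel per library, coloured by class. The dashed line is the 500 CPM cut. Cells with high surrogate light chain lie mostly at low Igkc (a UMI in 28 of 123 in control 1), and cells at 0 surrogate light chain mostly have Igkc.

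**Figure D3:**
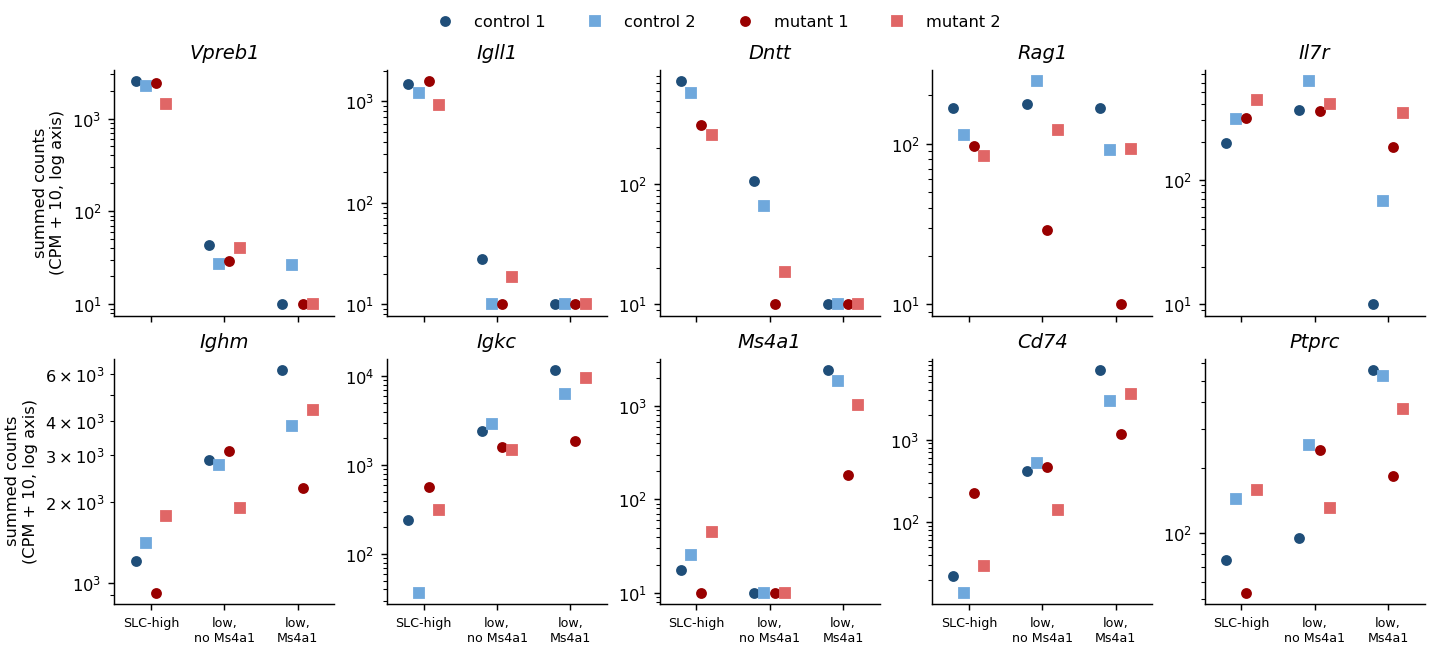
Summed CPM plus 10 (log axes) of 10 genes in the 3 classes, 1 point per library. Vpreb1, Igll1 and Ms4a1 set the classes. Dntt falls from the SLC-high class on, Igkc and Cd74 climb across the classes in each library, and Rag1 shows no such order.

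The classes were then compared over all genes within the control libraries, the only ones with at least 20 cells in both. edgeR, with the library as a block, called 237 of 4799 tested genes (4.94%) higher and 368 (7.67%) lower in SLC-high cells at an adjusted p under 0.05, with Vpreb1, Igll1 and Cd79b, which the rules used, among them. This fit had 1 residual degree of freedom and borrowed its spread from all genes. DESeq2 called 90 (27 higher, 63 lower), and edgeR without the block 201 (72 higher, 129 lower). Beside Vpreb1 and Igll1, 65 genes were called at all 12 settings tried, 17 of them higher. SLC-high cells were also deeper (median 5306 against 3232 UMIs in control 1, and 7914 against 4276 in control 2), and the part of depth was not tested. Mutant 2 did not enter the fit: leaving out the genes that set cells or classes, of those with at least 10 UMIs there, 171 of 204 called higher were higher in its SLC-high cells (83.8%) and 305 of 339 called lower were lower (90.0%), where 46.7% and 53.3% of all 4555 tested genes lay on these sides.

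Among receptor genes, 13 of 20 tested were lower in SLC-high cells (8 by DESeq2) and 1, Vpreb2, higher (median log2 fold change -1.25, against -0.02 over all tested genes). Vpreb2 was not called by DESeq2 (adjusted p = 0.382). It can share reads with Vpreb1, which sets the class, so its higher level is not independent of the class rule. The light chains Igkc (231 against 3056 CPM in control 1 and 26.7 against 4061 CPM in control 2) and Iglc1 (0 against 522, and 3.81 against 1007 CPM) had the lowest p. Ighm was lower by a smaller step, 1193 against 3101 and 1404 against 3113 CPM (log2 -1.30, SE 0.22, edgeR adjusted p = 1.31e-07). The signalling kinase Syk, the receptor-associated Cd38 and Fcrla were lower at every setting. Of the MHC class II list 5 of 7 were lower (3 by DESeq2, median -2.48), with Cd74 at 11.9 against 878 and 3.81 against 1348 CPM, and H2-Aa and H2-Eb1 lower at every setting.

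Of the recombination list 1 of 8 tested was called, Dntt, higher by 3.32 (log2, SE 0.26, edgeR adjusted p = 1.92e-33, 12 of 12 settings). Rag1 had a log2 fold change of -0.41 (SE 0.25, adjusted p = 0.339) and Rag2 of 1.01 (SE 0.38, adjusted p = 0.0626). Transcription factors divided, 5 of 26 higher and 10 lower (2 and 5 by DESeq2). Lef1, a WNT pathway factor of early lymphocytes, was higher (281 against 53.3 and 538 against 36.9 CPM, log2 3.07, SE 0.28, adjusted p = 6.83e-26), as was Erg, an ETS factor of early progenitors (103 against 11.2 and 130 against 17.0 CPM, log2 3.00, SE 0.43, adjusted p = 2.51e-10). Klf2, a factor of resting lymphocytes, was lower (34.8 against 427 and 15.3 against 434 CPM, log2 -3.91, SE 0.27, adjusted p = 2.55e-43), and so were Spib and Pou2f2. These 5 were called at all 12 settings, whereas Myc, Id3 and Tcf4, also higher, were not called by DESeq2 (adjusted p 0.721, 0.689 and 0.583).

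Of the cytokine and homing receptors 6 of 14 were lower and 1, Socs2, a feedback regulator of cytokine signals on the same list, was higher, whereas DESeq2 called 1 lower and 0 higher, and edgeR with mutant 2 added (at least 10 cells) 3 lower and 0 higher. Il2ra was lower at all 12 settings (2.54 against 50.5 and 0 against 56.8 CPM). The drop of Il7r, 185 against 328 and 298 against 414 CPM, was small (log2 -0.70, SE 0.22, edgeR adjusted p = 0.0131) and held at 5 of 12 settings. Outside the lists, the higher genes with the smallest p included Bfsp2, Ifitm2, Pcp4l1 and Rasgrp2. Of the 4 globin genes named among the lower ones, Hbb-bs went from a log2 fold change of -4.53 to -0.67 without the mixed members. These globin genes are on the erythroid list that sets mixed members, so the smaller value is no independent check. Globin copies also share reads.

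**Figure D4:**
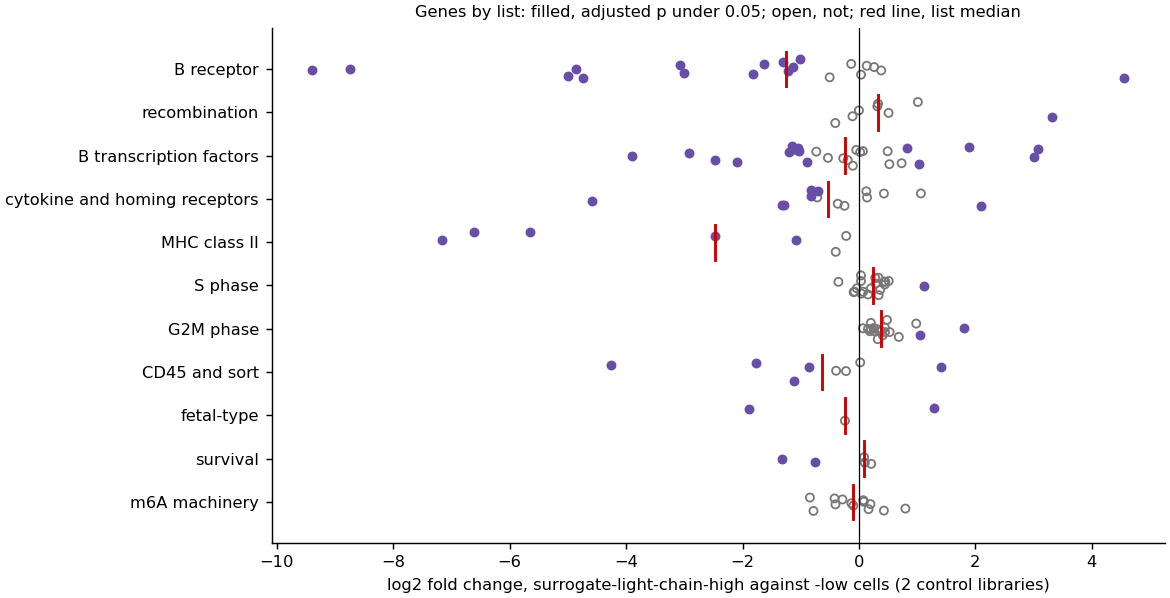
Log2 fold change of each tested gene in SLC-high against SLC-low cells of the 2 control libraries, by gene list. Filled points passed an adjusted p of 0.05, open points did not, and red lines are list medians (-1.25 for the receptor list and -2.48 for MHC class II). Vpreb1, Igll1, Cd79a and Cd79b, which set the cells or the classes, are left out.

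Cell cycle RNA was found in every class, at a lower level than in erythroid cells. The G2M list (20 genes, among them Mki67 and Top2a) summed to 3043, 3251, 1921 and 4172 CPM in members, against 5195, 6596, 5119 and 6248 CPM in erythroid cells, and the S phase list to 3705, 3404, 1863 and 2770 against 6415, 7078, 4075 and 5973 CPM. Members thus stood below erythroid cells in all 4 libraries on both lists. A UMI of Mki67, a proliferation antigen, was found in 67 of 187, 30 of 80, 6 of 17 and 16 of 54 members. Those cells were deeper (in control 1 a median of 11410 against 3358.5 UMIs for the rest). Each cell was therefore also thinned to 1000 UMIs, in 1 random draw per class. The share was then 14.4%, 20%, 11.8% and 7.41%, against 51.9%, 72.8%, 47.5% and 60.1% of erythroid cells. Free RNA also held Mki67, at 591, 498 and 239 CPM in the empty droplets of control 1, control 2 and mutant 2, beside 466, 607 and 470 CPM in the members there. The part of free RNA in these shares was not tested.

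Few cycle genes were called between the classes in the control fit. The G2M list was at 3207 and 3814 CPM in SLC-high and 2503 and 2832 CPM in SLC-low cells of the controls, at 6182 and 2648 in mutant 2, and at 173 and 2419 in mutant 1, whose 3 SLC-high cells turn the order. In the control fit 2 of 20 G2M genes (Bub1 and Bub1b, of the spindle checkpoint) and 1 of 20 S phase genes (Tyms, thymidylate synthase) were higher, none lower, with medians of 0.37 and 0.24. With mutant 2 added at a minimum of 10 cells, 8 of 20 G2M genes were higher. Mki67 itself had a log2 fold change of 0.07 (SE 0.21, adjusted p = 0.908). Tyms was at 175 against 87.0 and 244 against 99.3 CPM (log2 1.11, SE 0.26, edgeR adjusted p = 0.00043, but 0.513 by DESeq2).

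The cells carried RNA for the antigen they were sorted against. Ptprc was at 77.5, 251, 173 and 150 CPM in members (119, 154, 18 and 71 UMIs), against 0.789, 1.52, 5.27 and 2.77 CPM in erythroid cells, where it should be absent. A UMI was seen in 40.6%, 77.5%, 52.9% and 63.0% of members. After thinning to 1000 UMIs it was 10.2%, 26.3%, 35.3% and 16.7%, against 0.0943%, 0.219%, 1.25% and 0.431% of erythroid cells. Each thinned share is 1 random draw. In mutant 1 that draw had 6 of 17 members with a UMI, and separate draws by class had 0 of 3 SLC-high and 2 of 14 SLC-low cells. The order of the libraries by thinned share is therefore not read. Free RNA held 4.05, 4.48 and 29.5 CPM of Ptprc in control 1, control 2 and mutant 2. By CPM over all members, control 1 was the lowest library and control 2 the highest, with the mutants between. Without mixed members Ptprc was at 84.2, 266, 282 and 150 CPM. Control 1 was then still the lowest, but mutant 1 was the highest, on 18 UMIs. Ptprc was at 65.3, 133, 43.3 and 147 CPM in SLC-high cells and at 552, 515, 173 and 360 CPM in Ms4a1-positive cells, the higher in all 4 libraries, though mutant 1 rests on 1 and 5 UMIs. In the control fit SLC-high cells were lower than SLC-low (log2 -1.12, SE 0.25, edgeR adjusted p = 0.000232, 0.485 by DESeq2, called at 7 of 12 settings).

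Neutrophil-lineage cells, another kind of white blood cell left by the sort, served as the comparison, in the 3 libraries with at least 20 cells of both kinds. edgeR called 391 of 6733 genes (5.81%) higher and 753 (11.2%) lower in B-lineage cells. The genes that set the kinds of cell were not left out of these counts, and Cd79a and Cd79b are among those called. Without TMM scaling the split was 1847 higher and 538 lower, and the median over all tested genes moved from 0.06 to 0.72. Ptprc was lower in B-lineage cells, at 77.5 against 103, 251 against 573 and 150 against 424 CPM (log2 -1.72, SE 0.35, edgeR adjusted p = 0.0113). It was called at 12 of 13 settings and not without the library block (adjusted p = 0.0751). The CD45-associated Ptprcap went the other way, at 706 against 66.6, 727 against 15.7 and 586 against 6.01 CPM (log2 4.48, SE 0.56, adjusted p = 0.00129). The leukocyte integrin subunits Itgal and Itgb2 were lower and Ly6d, a surface marker of B progenitors, higher. The heat-stable antigen Cd24a, at 1104 against 173, 1024 against 481 and 1203 against 362 CPM, missed the threshold (log2 1.15, SE 0.41, adjusted p = 0.0999).

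**Figure D5:**
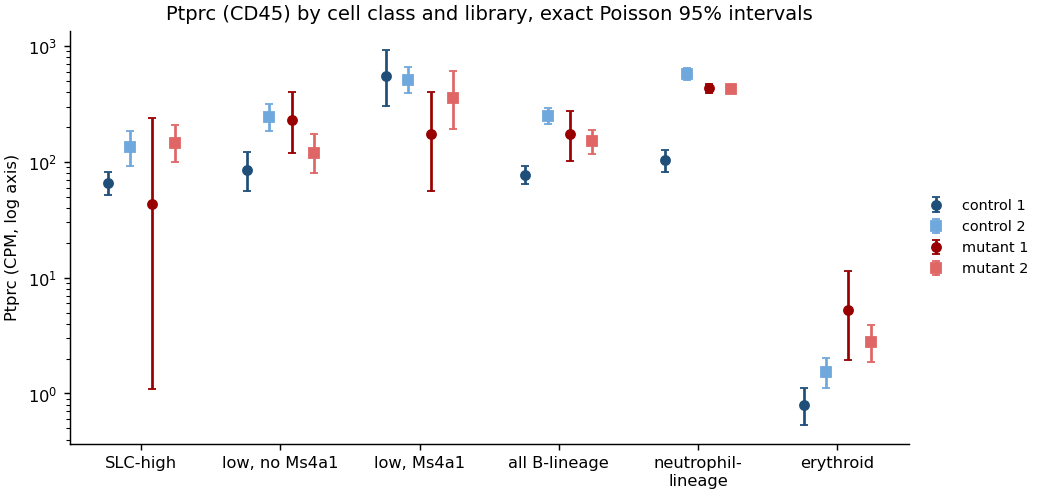
Ptprc in CPM (log axis) by cell class and library, with exact Poisson 95% intervals that cover counting error only. All B-lineage classes lie far above erythroid cells (at most 5.27 CPM), and the Ms4a1-positive class lies highest among them in the controls and mutant 2 (552, 515 and 360 CPM).

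Among other lists in that comparison, 13 of 27 transcription factors were higher in B-lineage cells, Ebf1, Pax5 and Tcf3 (E2A) among them, and 2 lower, Spi1 (PU.1, a myeloid factor at high dose) and Id2, an inhibitor of E proteins. Itga4, an integrin that binds marrow stroma, was higher (181 against 67.8, 208 against 24.7 and 152 against 17.0 CPM), and Cd44 and Kit were among the lower ones. Of 20 S phase, 20 G2M, 6 survival and 16 m6A machinery genes edgeR called 0, with 7, 0, 3 and 2 at an unadjusted p under 0.05, and DESeq2 also called 0. At a minimum of 10 cells per class edgeR called 3, 0, 2 and 2 of them higher. The libraries differed in direction for the cycle lists, so 0 calls do not show equal levels. After thinning, an S phase UMI was in 57.2% of B-lineage against 79.4% of neutrophil-lineage cells of control 1. In control 2 it was 57.5% against 25.8%, and in mutant 2 59.3% against 28.2%. For G2M the shares were 40.6% against 73.5%, 38.8% against 29.0% and 27.8% against 18.8%.

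Of the fetal-type list 3 of 10 genes were tested. Lin28b, which drives fetal-type lymphopoiesis, had 1, 1, 0 and 0 UMIs in all members. Igf2bp3, one of its targets, was at 46.9, 70.0, 19.2 and 38.1 CPM and higher in SLC-high cells of the controls (log2 1.29, SE 0.39, edgeR adjusted p = 0.0111, called at 4 of 12 settings). Arid3a, another gene of the list, was lower (log2 -1.90, SE 0.36, adjusted p = 4.16e-06, 0.255 by DESeq2).

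For the study's own contrast, mutant against control, few mutant cells were at hand. With the minimum of 20 members only 1 mutant library qualified, so that fit gave no test. With a minimum of 10, which lets in mutant 1 and its 17 cells, edgeR called 149 of 6425 genes (2.32%) higher and 46 (0.716%) lower in mutant members. This fit had 1 residual degree of freedom and borrowed its spread from all genes, so its small p-values do not rest on each gene's own spread. DESeq2 called 55 (52 higher, 3 lower), and without control 2 edgeR called 0 (191 genes at an unadjusted p under 0.05), in a fit that also dropped the term for Cell Ranger version, since 3 libraries leave it no residual degrees of freedom. The higher genes with the smallest p included Spp1, Mepe, Dmp1 and Ibsp, which encode proteins of bone matrix, and also Timp2, Nupr1 and Tnc. Spp1 (osteopontin) had levels of 21.5 and 6.51 CPM in the control libraries, and of 42973 and 2229 CPM in the mutant libraries, and in each mutant library 1 cell gave 58.7% and 59.2% of its UMIs. Without mixed members Spp1 was at 235 and 185 CPM in the mutants, Mepe was at 0 in all 4 libraries, and 37 genes were called (24 higher, 13 lower). Spp1, Mepe, Dmp1 and Ibsp are on the bone list that sets mixed members, so their lower levels there follow from the rule. Col1a1, a bone collagen gene named here after its values were seen, had a UMI in 41.7%, 12.5%, 64.7% and 83.3% of members (median depth 4366 to 4733 UMIs). In erythroid cells, which should lack it, the shares were 41.2%, 13.4%, 75% and 93.1% (median depth 11665.5 to 21785 UMIs), and free RNA held it at 5017, 582 and 14656 CPM in control 1, control 2 and mutant 2, so no level of it is read from the members.

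Car2, Car1, Dntt, Vpreb2 and Hemgn were among the lower genes with the smallest p. Car2, a carbonic anhydrase abundant in red cell precursors, had 637 and 436 CPM in the control libraries, and 28.8 and 106 CPM in the mutant libraries (log2 -2.68, SE 0.36, edgeR adjusted p = 2.86e-11). Free RNA held it at 2224, 2687 and 925 CPM in control 1, control 2 and mutant 2, whose part in the difference was not tested, and without mixed members its log2 fold change was -1.70. Car2 is itself on the erythroid list that sets mixed members, so that value is no independent check. Of the receptor list 4 of 22 were lower (Vpreb1, Vpreb2, Iglc1 and Ms4a1), of the recombination list 1 of 11 (Dntt), of the transcription factors 1 of 26 (Lef1) and of the S phase list 1 of 20 (Tyms), and of the receptors for cytokines and homing 1 of 16 was higher (Itgb1). Of these DESeq2 called Dntt alone. Dntt had 570 and 264 CPM in the control libraries, against 67.2 and 112 CPM in the mutant libraries (log2 -1.85, SE 0.34, edgeR adjusted p = 4.28e-06), and the groups did not overlap. Dntt is among the genes named above by smallest p, for which groups without overlap were a condition. Dntt was called at 10 of 12 settings, with an adjusted p of 0.0356 by DESeq2, and was not called without control 1 or without control 2. Vpreb1 fell from 1934 and 960 CPM in the control libraries to 538 and 622 CPM in the mutant libraries (log2 -1.16, SE 0.32, adjusted p = 0.0117, called at 4 of 12 settings), and Igll1 at 1135 and 509 against 346 and 393 CPM (adjusted p = 0.102). Within the 6.1.2 pair these 3 genes were lower in mutant 2, while its SLC-high share was the higher (29.6% against 26.3%). The part of that share was not tested. Ms4a1 was also called (46.2 and 371 against 48.0 and 93.0 CPM, adjusted p = 0.0061), but its groups overlapped, and without control 2 its log2 fold change was 0.63. Ptprc did not pass (log2 0.05, SE 0.33, adjusted p = 0.987), and its sign turned under 5 alternatives. Il7r did not pass either (log2 0.31, SE 0.31, edgeR adjusted p = 0.923).

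Mettl3, the floxed gene, was at 14.3 and 19.5 CPM in control members and 38.4 and 25.4 CPM in mutant members (22, 12, 4 and 12 UMIs, log2 0.82, SE 0.65, edgeR adjusted p = 0.863). A 3′ count does not check a deletion within the gene.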

How the data were processed

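The 4 deposited single-cell libraries were used. Per the labels' protocols they were made with the 10x 3′ v3.1 chemistry, and per the submitters' processing notes with Cell Ranger 5.0.1 (control 1, mutant 1) or 6.1.2 (control 2, mutant 2) on mm10; per the file headers the matrices name Cell Ranger 4 for 3 libraries and 5.0.1 for mutant 1. The deposited values are raw UMI counts per gene and barcode. Replicate numbers only name libraries. Rules for cells stand with the results, and doublets were removed only in an alternative (Scrublet scores, the top 0.8% per 1000 cells). The members and gene lists were chosen with earlier results of these data known.

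Counts were summed per library and class. CPM scales those sums to a common total. Tests used edgeR 4.0.16 (TMM, filterByExpr, quasi-likelihood, Benjamini-Hochberg over all tested genes at 0.05), with DESeq2 1.42.0 as an alternative, in R 4.3.3, and the fit between SLC classes was tested on simulated counts. Named genes are those of 11 lists, plus the 10 higher and 10 lower genes with the smallest p that moved alike in every library. Fitted fold changes of genes at or near 0 depend on edgeR's prior count. Alternatives changed the cell filter, member rule, class cut, scaling, filter, block and libraries. No library was left out of the data. Some genes and the results that need them are not reported here. Of 32285 gene identifiers 32158 matched GENCODE.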

Additional observations from a re-analysis of the deposited data

How the results depend on the processing

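The share difference stayed negative under every alternative run, from -2.31 to -1.29 points with a library left out. The SLC-high share difference ran from -36.1 to 3.38 points with a library left out, and reversed to 3.38 without control 1. SLC-high against -low called 605 genes, 90 by DESeq2, 328 without TMM, 201 without the block, 308 with the class cut at 1000 CPM, and with mutant 2 added (at least 10 cells) 445 without control 1 and 179 without control 2. Leaving a library out of the 2-library fit itself left no residual degrees of freedom, so that fit was not run. B-lineage against neutrophil-lineage called 1144 genes, 2385 without TMM, 2140 with no filter, and 950 to 1436 with a library left out. Mutant against control called 195 genes, 55 by DESeq2, 92 without the term for Cell Ranger version, 72 with Cd79a 3 and Cd79b 2, 37 without mixed members (added after seeing the data), 46 in SLC-low members alone (also added), and 0 to 176 with a library left out and with it the term for Cell Ranger version (23 without control 1, 0 without control 2). The cause of these shifts was not tested. Signs turned for Rag1 (0.10) and Mki67 (-0.27) between classes at the 1000 CPM cut. Between genotypes the range with a library left out was -2.18 to 0.63 for Ms4a1 and -3.03 to 0.28 for Iglc1, positive without control 2 in both, and -0.53 to 0.98 for Ptprc, negative without control 1 and without mutant 1 (-0.10). Ptprc was also negative without doublets (-0.067), at Cd79a 3 and Cd79b 2 (-0.090) and with no filter (-0.0030). Replicate numbers come from accession order and pair no libraries, so the term for Cell Ranger version was the only block between genotypes. Mutant 1 has 17 members.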
